A study of Mus musculus with 36 samples.

Results

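Of the 46019 probes on the array, 69 gave higher values at 24 or 48 h of myogenic differentiation than at 0 h and lower values again at 144 h. The probes were chosen from the authors' normalized log2 values by 3 conditions. The mean of the 3 arrays at 24 h or at 48 h, whichever was higher, lay at least 0.8 above the mean at 0 h. The mean at 144 h lay at least 0.5 below that peak. At the peak time every array lay above the 0 h array of the same replicate number. By these conditions 23 probes were higher at 24 h and 46 were higher at 48 h. A single gene symbol could be given to 57 of the 69 probes, which stood for 52 genes, because Asns, Psat1, Nip7, Nmrk2 and Ddc each had 2 probes among them. The other 12 probes are unnamed here. The conditions did not look at the remaining times, and 64 of the 69 probes had their highest mean at 24 or 48 h. The other 5 had a higher mean elsewhere, Ccn1 at 1 h, Noct at 1.5 h, Gfra1 at 12 h, an Asns probe at 96 h and an unnamed probe at 2 h. Because levels at 0, 24, 48 and 144 h chose the probes, differences among those times are given below as descriptions and were not tested.

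The cells were C2C12, an immortal mouse myoblast line that fuses into contracting myotubes when serum is withdrawn. Control myoblasts (0 h) grew in DMEM with 20% FBS, and the differentiating cultures were moved to DMEM with 2% horse serum and harvested after 1, 1.5, 2, 3, 6, 9, 12, 24, 48, 96 or 144 h. Each of the 12 times was harvested in 3 replicates from successive passages, so the 36 arrays (Illumina Mouse WG-6 v1.1, labelled total RNA) describe repeated growths of a single cell line. No later array stayed in 20% FBS, so time in culture and the change of medium cannot be told apart.

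Myoblasts that leave the cell cycle switch on muscle regulators, then fuse, and finally build the contractile apparatus. Most genes of the contractile apparatus that rise along this path stay high in the myotube. Cdkn1c encodes p57, an inhibitor of cyclin-dependent kinases that acts with p21 in the arrest of muscle precursors. Amino acid synthesis, one-carbon metabolism and tRNA charging supply the protein and nucleotide synthesis of a growing cell, and several of their genes are known targets of the stress-responsive factor ATF4.

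Array medians of the raw probe intensity ranged from 179 to 307, with the lowest probe at 91.5. At their peak all 69 probes were above the array median on all 3 arrays, and 67 of them were already so at 0 h. Muscle markers checked the labelled differentiation, since all 4 tested probes for myotube markers were higher at 96 h than at 3 h by limma, with a median log2 difference of 3.49. Among markers of other cells, Col1a1 of fibroblasts rose by 1.27 in that comparison (adjusted p = 0.001) and 1 of 2 probes for Pdgfra fell by 0.92 (adjusted p = 1.5e-05). None of 4 adipocyte probes was higher and 2 were lower. No chondrocyte or osteoblast probe passed the test among 2 tested. The part of these other markers in the results below was not tested. In these bulk samples, fewer cells of a type and less RNA per cell cannot be told apart.

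The peaks were moderate, slow to build and incomplete in their return. On the deposited log2 scale the median peak was 1.1 above 0 h (range 0.81 to 3.89), and 45 probes reached a log2 difference of 1, or 2-fold. The median difference from 0 h was 0.03, 0.24 and 0.46 after 3, 6 and 12 h, reached 0.86 and 1.03 after 24 and 48 h, and came down to 0.65 and 0.32 after 96 and 144 h. For 60 probes the 96 h mean lay between the peak and the 144 h mean. At 144 h a median of 32.0% of the peak log2 difference was left. By then 9 probes were below 0 h, 22 were within 0.25 of it, and 13 were still at least 1 above it. At the peak the 3 arrays lay above all 3 arrays of 0 h for 68 of the 69 probes, and above all 3 arrays of 144 h for 64. The conditions used these same arrays and favoured such separation, so the counts only describe the choice.

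**Figure D1:**
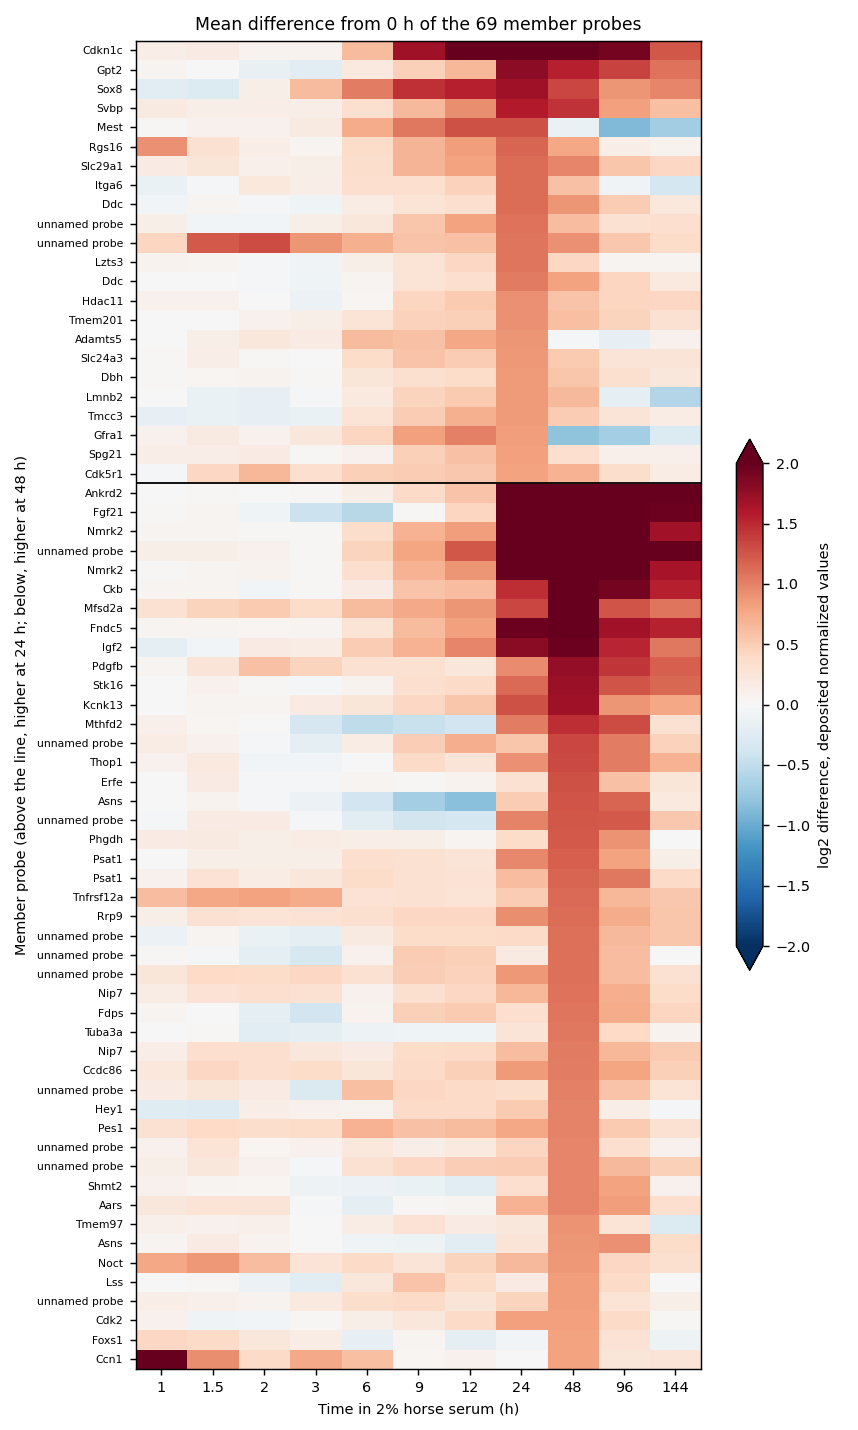
Mean difference from 0 h (colour, log2 scale of the deposited values, capped at 2 in either direction) of each of the 69 probes (rows) at the 11 later times (columns, in hours). The 23 probes above the line were higher at 24 h and the 46 below it at 48 h, and most rows are near 0 until 3 h, darkest at 24 or 48 h, and paler at 144 h.

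The probes higher at 24 h had lost more of their peak by 96 h. In that class a median of 37.2% of the peak log2 difference was left at 96 h and 19.2% at 144 h, against 67.3% and 36.1% in the class higher at 48 h. These shares describe how the classes were cut and carry no test. For 11 probes the means at 24 and 48 h differed by less than 0.2, so their class is a matter of small differences.

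The conditions drew a line through a continuous range. Just inside the height condition were Ccn1 (0.806), Cdk5r1 (0.809) and Foxs1 (0.812). Just outside it were Capn6 (0.792) and Eif5a (0.789). By the return to 144 h, Fndc5 (0.510) and Hdac11 (0.518) were inside while Nrarp (0.494) and Trmt61a (0.494) were outside. A further 24 probes met the other conditions with a height of 0.7 to 0.8, and 36 did so with a return of 0.4 to 0.5.

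The choice could be repeated in 2 replicates and read in the one left out, which gives values the choice did not use. With replicate 1 left out 61 probes qualified, and in replicate 1 all 61 lay above their 0 h array at the peak time and 58 lay above their 144 h array. With replicate 2 left out 85 qualified, of which 83 were above 0 h and 82 above 144 h in replicate 2. For replicate 3 the numbers were 96, 96 and 95. The median drop from the peak time to 144 h in the replicate left out was 0.90, 0.62 and 0.51 for replicates 1, 2 and 3. Most probes of each set thus lay higher at the peak time than at 0 h and at 144 h in the replicate left out. Of the probes chosen without replicate 1, 2 and 3, 48, 62 and 66 belonged to the set chosen from all replicates. Such counts were not made over all probes, so the counts given here have no scale.

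**Figure D2:**
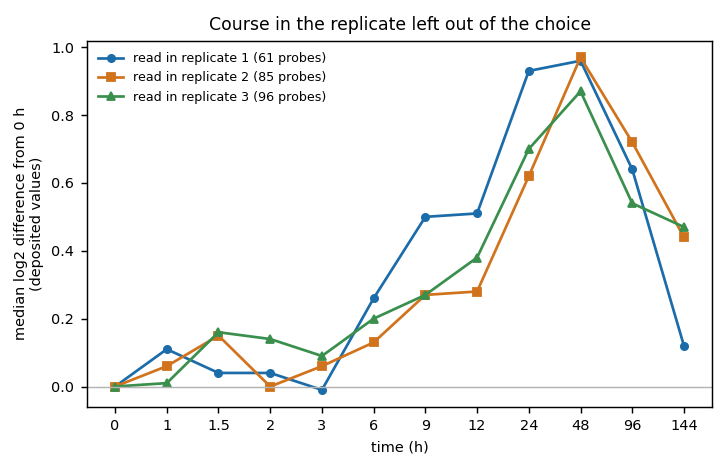
Median log2 difference from 0 h (vertical axis, deposited values) at each time (horizontal axis, hours, evenly spaced categories) in the replicate that did not enter the choice of probes. The 3 lines stand for replicates 1 (61 probes), 2 (85) and 3 (96), and each is highest at 48 h and lower at 144 h.

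Times that the conditions did not use allowed tests of the flanks of the peak. For these, the raw intensities were background-corrected and quantile-normalized, and each level given per array below is a log2 value from that processing, called a level on the fit scale. All 36 arrays were fitted together with limma and p-values were adjusted over 29812 probes by Benjamini and Hochberg, with a call at an adjusted p below 0.05. Shares of all tested probes that were called are given for this fit only, not for fits with a block or with arrays left out. Counts of members called in those other fits therefore have no scale. The 3 comparisons share arrays with each other, and arrays of 12 and 24 h, or of 48, 96 and 144 h, of a replicate lay on the same chip, so they are not independent of each other or of the choice.

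On the rising flank, 27 of the 69 probes were higher at 12 h than at 3 h and none was lower, where 1.04% of all tested probes were called higher and 0.466% lower. The median difference was 0.55 over the 69 probes and 0.00 over all tested probes. The 24 h class held 15 of the calls among 23 probes (median 0.83) and the 48 h class 12 among 46 (median 0.22). At single-array level 40 probes had all 3 arrays of 12 h above all 3 of 3 h, and 5 had them all below. Such separation was not counted over all tested probes, so these counts have no scale. These calls were sensitive to single arrays, since 10 remained when 12 h replicate 3 was dropped, 11 when 12 h replicate 1 was dropped and 14 on dropping either 3 h replicate 1 or 3 h replicate 2, and when the whole of replicate 3 was dropped the count was 1, Cdkn1c. Within replicate 2, where the arrays of both times shared a chip, 51 of 69 probes were higher at 12 h with a median of 0.44, and with the chip as a block 37 probes were called higher and 1 lower. Blocking on the replicate number instead gave 36 called higher and 2 lower, an Asns probe and Tnfrsf12a.

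From 12 h to 96 h the classes had medians of opposite sign. Over the 69 probes 18 were higher at 96 h and 9 lower, where 8.41% of all tested probes were called higher and 10.3% lower. All 9 probes called lower belonged to the 24 h class, whose median was −0.43, and 17 of the 18 called higher belonged to the 48 h class, whose median was 0.47. Within replicate 1, where the arrays of 12, 24, 48 and 96 h shared a chip, the medians of the classes were −0.38 and 0.32. In the other replicates 12 h shared a chip with 24 h, and 96 h shared a different chip with 48 h. A difference between chips could there shift both the class of a probe and this comparison. The calls per class therefore describe the classes and do not test whether they differ. With the chip as a block 22 probes were called higher and 13 lower. Of the 27 calls, 16 held whichever single array or replicate was left out.

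At 96 h most members still lay above the level of 3 h. Here 41 of the 69 probes were called higher and 2 lower, where 11.5% of all tested probes were called higher and 12.8% lower, and the median difference was 0.71. The median was 0.29 for the 24 h class and 0.95 for the 48 h class. The 2 probes called lower were Mest and Gfra1, the latter not without the 96 h array of replicate 1 (adjusted p = 0.06). Within replicate 3, the replicate with a shared chip, 54 of 69 probes were higher at 96 h with a median of 0.56, and the chip as a block gave 44 calls higher and 4 lower. Of the 43 calls without a block, 25 held whichever single array or replicate was left out.

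For scale, 500 probes met the same height and replicate conditions but not the return, and they were handled in the same way. At 12 h against 3 h, 150 of the 500 were called higher (30.0%), with a median of 0.48, against 0.55 of the transient probes. At 96 h against 12 h, 409 were called higher (81.8%), with a median of 1.19 against 0.22 of the transient probes. Of the 500, 454 were higher at 48 h, so these pooled figures mix the classes in unlike shares. Split by class, the medians at 12 h against 3 h were 0.65 against 0.83 of the transient probes (24 h class) and 0.46 against 0.22 (48 h class). At 96 h against 12 h they were 0.50 against −0.43 (24 h class) and 1.32 against 0.47 (48 h class). The 144 h mean separates the sets by construction, and no test of their difference was made.

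**Figure D3:**
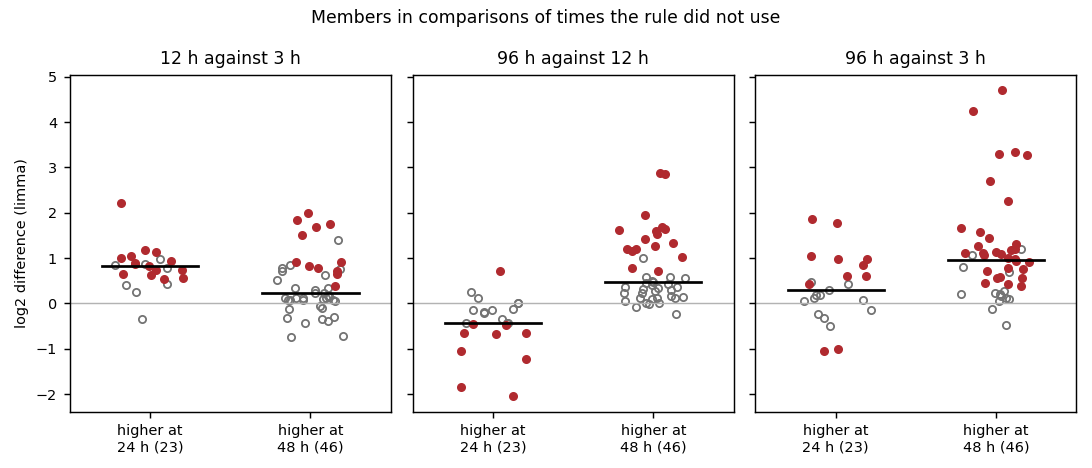
Log2 differences on the fit scale (vertical axis) of the 69 probes in the comparisons 12 h against 3 h, 96 h against 12 h and 96 h against 3 h, split into the 23 probes higher at 24 h and the 46 higher at 48 h. Each circle is a probe, filled where the adjusted p was below 0.05, and bars mark medians, which for 96 h against 12 h lie at −0.43 and 0.47.

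The members are described next by role. These role groups were put together after the values had been seen and were not tested. Cdkn1c had the largest peak and the largest return of the 69 probes on the deposited scale (3.89 and 2.65). Its fit-scale levels in replicates 1, 2 and 3 were 10.95, 10.90 and 11.03 at 0 h, then 10.82, 11.16 and 11.14 at 3 h. They were 13.36, 13.17 and 13.26 at 12 h, then 14.64, 14.92 and 14.54 at 24 h, and 14.88, 14.66 and 13.78 at 48 h. At 96 h they stood at 13.22, 13.04 and 12.47, and at 144 h at 12.03, 12.32 and 12.49. Every array from 9 h on was above every array of 0 to 6 h, and the means at 24 and 48 h were 13.4-fold and 11.1-fold above 0 h. The rise from 3 to 12 h was 2.22 ± 0.22 (SE; limma adjusted p = 5.5e-07). The level at 96 h did not differ detectably from that at 12 h (−0.35 ± 0.22, adjusted p = 0.33). It was still 1.87 ± 0.22 above 3 h (adjusted p = 1e-07).

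Of the other 8 tested probes on the list of cell cycle exit, which stood for 5 genes, 4 were higher and 2 lower at 96 h than at 3 h. Both probes for Cdkn1a, which encodes p21, rose by 1.87 and 1.60 in that comparison (adjusted p = 1.5e-07 and 7.4e-08). Their mean fit-scale levels at 144 h, 16.05 and 16.09, were close to the highest level of any probe on any array (16.13), so a return could not be read from them. Gadd45g, a growth arrest gene, stood 0.67 and 0.60 above 0 h on the deposited scale at 24 and 48 h and 0.26 at 144 h. For the retinoblastoma gene Rb1 the corresponding values were 0.93, 0.61 and 0.56. Cdk2, which encodes a kinase that p57 and p21 inhibit, was itself a member, 0.82 above 0 h at both 24 and 48 h and 0.03 at 144 h. Cdk2 lay 0.39 ± 0.10 higher at 96 h than at 3 h (adjusted p = 0.0034).

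Cdkn1c is an imprinted gene, expressed mainly from the maternal allele, and the imprinted genes Mest and Igf2 were also members. Mest, which encodes a predicted hydrolase, peaked early and ended below its start. Mest levels were 12.73, 12.43 and 12.75 at 0 h, 12.94, 12.75 and 12.75 at 3 h, 13.76, 13.92 and 13.77 at 12 h, then 13.78, 13.98 and 13.60 at 24 h. By 48 h they were down to 12.35, 12.94 and 12.21, then 12.35, 11.55 and 11.41 by 96 h and 12.06, 11.80 and 12.02 by 144 h. The arrays of 12 and 24 h were thus above, and those of 96 and 144 h below, all 3 arrays of 0 h. Mest rose by 1.00 ± 0.20 from 3 to 12 h (adjusted p = 0.0059) and fell by 2.05 ± 0.20 from 12 to 96 h (adjusted p = 4.6e-09).

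Igf2, an autocrine growth factor of differentiating muscle cells, started unevenly. Replicate 1 stood at 14.99 at 0 h and the others at 13.21 and 13.42. By 48 h the replicates had converged at 15.73, 15.45 and 15.42, and at 144 h they were 15.24, 14.62 and 14.43. The gain from 0 to 48 h was therefore much smaller in replicate 1. Igf2 passed the test in none of the 3 comparisons when all arrays were fitted without a block, with 1.19 ± 0.56 for 96 h against 3 h (adjusted p = 0.13). With the chip as a block the same difference was 1.32 ± 0.19 (adjusted p = 3.5e-06) and that for 12 h against 3 h was 1.03 ± 0.19 (adjusted p = 0.0012). Blocking on the replicate number instead left 12 h against 3 h at 0.71 ± 0.26 (adjusted p = 0.15). Among the other 10 tested probes of the insulin-like growth factor list, 2 were higher and 4 lower at 96 h than at 3 h. The receptor Igf2r stood 0.70 above 0 h at 24 h and 0.12 at 144 h on the deposited scale. The binding protein Igfbp2 fell by 2.13 ± 0.32 (adjusted p = 5.5e-06). Over the 22 tested probes of an imprinted gene list that were not members, the median deposited difference was 0.00 at both 24 and 48 h. A further Mest probe, 0.20 above 0 h at 24 h, was among these 22. That list was drawn up after the members were known.

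Muscle and secreted products were among the members with the largest differences from 0 h. Ankrd2, a stretch-responsive ankyrin repeat protein of muscle, was below the array median on all 3 arrays at 0 h and similarly dim at 3 h, so no fold over 0 h is given and differences from 3 h depend on the background correction. Its levels were 6.63, 6.47 and 7.36 at 3 h, 9.02, 7.87 and 9.06 at 12 h, 11.30, 11.57 and 11.75 at 24 h, then 12.14, 12.72 and 12.36 at 48 h. They were 11.81, 11.48 and 11.31 at 96 h, then 10.94, 11.19 and 11.14 at 144 h. All arrays of 48 h were above all others, and those of 144 h were above all arrays up to 12 h. Ankrd2 rose by 1.83 ± 0.31 from 3 to 12 h (adjusted p = 0.0011), or by 0.55 ± 0.14 in the authors' normalized values (adjusted p = 0.052), and by a further 2.88 ± 0.31 from 12 to 96 h (adjusted p = 2.8e-08).

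Nmrk2, a nicotinamide riboside kinase of muscle, had 2 member probes that gave nearly the same course. In the first, levels were 8.09, 7.10 and 7.41 at 0 h, 11.89, 11.87 and 11.33 at 48 h, then 10.79, 10.71 and 10.35 at 144 h. On the deposited scale the mean at 48 h was 2.67 above 0 h by this probe and 2.62 by the second. A further Nmrk2 probe that passed the filter showed no such peak, with 0.24, 0.48 and 0.46 after 48, 96 and 144 h. Both member probes rose from 12 to 96 h, by 1.65 ± 0.41 (adjusted p = 0.0036) and 1.53 ± 0.37 (adjusted p = 0.0033). Fndc5, the precursor of the secreted peptide irisin, and Ckb, the brain-type creatine kinase, also stayed well above the start. Their deposited differences from 0 h at 48 and 144 h were 2.05 and 1.54 for Fndc5 and 2.11 and 1.56 for Ckb. A further Fndc5 probe that passed the filter was nearly flat, with 0.08 at 48 h and 0.04 at 144 h. Ckb rose by 1.15 ± 0.15 from 12 to 96 h (adjusted p = 1.2e-06). The muscle creatine kinase Ckm, no member, stood 4.07 above 0 h at 48 h and 3.99 at 144 h, and none of the tested probes on the lists of early and late contractile genes, 12 and 8 in number, was a member.

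The member probes for the potassium channel Kcnk13 and the kinase Stk16 showed large differences of the same kind, 1.70 and 1.72 above 0 h at 48 h on the deposited scale. A further probe of each that passed the filter was flat at 48 h (−0.01 for Kcnk13 and 0.01 for Stk16). The Kcnk13 member was dim at 0 h, with a mean fit-scale level of 7.37. Stk16 was called higher in the comparison of 96 h with 12 h (1.34 ± 0.20, adjusted p = 5.3e-06; 0.86 ± 0.12 in the authors' values) and Kcnk13 was not (0.59 ± 0.29, adjusted p = 0.17; with the replicate number as a block, 0.034). Mfsd2a, a transporter of lysophospholipids, was 2.09 above 0 h at 48 h on the deposited scale and lay 1.11 ± 0.18 higher at 96 h than at 3 h (adjusted p = 1.8e-05). Erfe, the hormone erythroferrone, also known as myonectin in muscle, moved late: its deposited differences were 0.31, 1.27, 0.59 and 0.24 after 24, 48, 96 and 144 h. At 144 h the Erfe arrays were spread, with fit-scale levels of 10.68, 11.83 and 11.67.

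Fgf21, a secreted hormone of the metabolic stress response, was widely spread at the start. Fgf21 levels were 10.48, 8.53 and 9.26 at 0 h, then 9.08, 8.09 and 9.02 at 3 h. At 24 h they were 12.69, 12.89 and 12.95 and at 48 h 13.01, 13.47 and 12.96. They were 14.23, 12.37 and 12.32 at 96 h, then 11.39, 11.98 and 12.28 at 144 h. The groups of 24 h and later did not overlap with the earlier ones. The difference of 96 h from 12 h was 2.85 ± 0.55 (adjusted p = 0.00027), and 2.22 ± 0.57 without the 96 h array of replicate 1 (adjusted p = 0.0065).

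**Figure D4:**
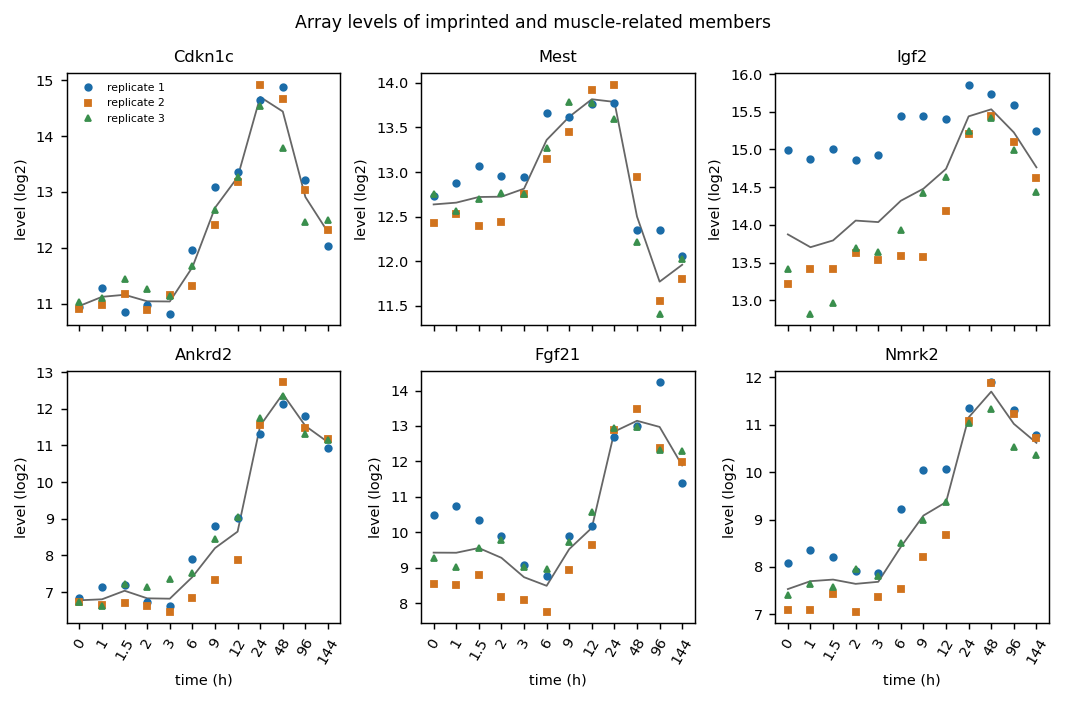
Fit-scale log2 levels (vertical axes) of Cdkn1c, Mest, Igf2, Ankrd2, Fgf21 and Nmrk2 at the 12 times (horizontal axes, hours, evenly spaced categories), with a marker for each replicate and a line through the means of 3. Cdkn1c and Ankrd2 separate from 0 h in all replicates, Mest ends below its start, and Igf2 starts higher in replicate 1 than the other replicates end.

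Genes of serine, glycine and asparagine synthesis and of the mitochondrial folate cycle, together with Gpt2, made up 8 of the 69 probes. Phgdh and Psat1 catalyse the first steps of serine synthesis, Shmt2 and Mthfd2 pass the serine carbon into the mitochondrial folate pool, Asns makes asparagine, and Gpt2 is a mitochondrial alanine aminotransferase. Aars, which charges the alanine tRNA, was highest at 48 h, while Gpt2 was higher at 24 h (1.79 above 0 h on the deposited scale) than at 48 h (1.55). With Fgf21, Asns and Aars also share a pattern of letters in their promoters. The stretches of 250 bases before the annotated start (RefSeq, build GRCm38.p6) are shown because these 3 were the only member genes in which it was found, with the matches in capitals.
Asns, chr6:7693210-7693459, minus strand: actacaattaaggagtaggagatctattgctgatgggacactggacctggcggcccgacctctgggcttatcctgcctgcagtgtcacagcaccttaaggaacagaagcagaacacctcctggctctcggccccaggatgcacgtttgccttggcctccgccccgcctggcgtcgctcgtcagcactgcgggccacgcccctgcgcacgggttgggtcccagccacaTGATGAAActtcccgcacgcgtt
Fgf21, chr7:45615491-45615740, minus strand: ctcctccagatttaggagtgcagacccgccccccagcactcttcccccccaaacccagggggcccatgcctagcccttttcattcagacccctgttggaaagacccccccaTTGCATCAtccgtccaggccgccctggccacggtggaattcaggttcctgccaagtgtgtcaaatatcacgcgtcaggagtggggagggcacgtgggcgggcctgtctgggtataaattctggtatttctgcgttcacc
Aars, chr8:111033592-111033841, plus strand: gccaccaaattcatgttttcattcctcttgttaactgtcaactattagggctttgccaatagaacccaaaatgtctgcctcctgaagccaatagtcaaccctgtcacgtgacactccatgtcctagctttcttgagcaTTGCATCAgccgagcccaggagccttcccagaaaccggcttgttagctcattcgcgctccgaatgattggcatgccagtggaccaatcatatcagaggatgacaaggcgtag
The capitals mark matches to TGATGNAA, the letters of the combined C/EBP and ATF response element, searched on both strands. The match began 23 bases before the start in Asns, 139 in Fgf21 and 112 in Aars, where a second match lay 9 bases past the start and is not shown. In Fgf21 and Aars the match reads in the reverse orientation. Over windows from 250 bases before to 50 after the start, 3 of the 44 member genes with a promoter sequence held a match (6.82%), against 4.51% of 27025 genes. Phgdh, Psat1, Shmt2, Mthfd2 and Gpt2 held none in this window. CAGCTG, an E-box, was present in 10 of 44 member genes (22.7%) and 18.3% of all genes. The sterol element TCACNCCAC was present in 0 of 44 and 1.44% of all genes. The motifs were chosen with the members known, a match is a run of letters and not a measured binding site, and no test was made.

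Asns stood lower at 12 h than at the start. The first Asns probe had levels of 12.66, 12.37 and 11.95 at 0 h, then 12.50, 12.10 and 12.07 at 3 h, then 11.79, 11.05 and 11.58 at 12 h. It reached 13.16, 12.66 and 12.66 at 24 h, 13.75, 13.40 and 13.27 at 48 h, then 14.28, 13.06 and 12.92 at 96 h, and was back at 12.19, 12.64 and 12.68 at 144 h. All 3 arrays of 12 h were below, and all 3 of 48 h above, those of 0 h. The difference of 12 h from 3 h was −0.75 ± 0.30 (adjusted p = 0.33). Blocking on the replicate number made it −0.75 ± 0.20 (adjusted p = 0.03). From 12 to 96 h the probe rose by 1.94 ± 0.30 (adjusted p = 1.3e-05) and the second Asns probe by 1.68 ± 0.25 (adjusted p = 6.4e-06).

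Mthfd2 was high on all arrays of 24, 48 and 96 h and near its start by 144 h. Its levels were 12.35, 12.06 and 11.90 at 0 h, then 11.81, 11.49 and 11.83 at 12 h. They were 13.24, 13.05 and 13.02 at 24 h, 13.64, 13.42 and 13.37 at 48 h, 14.20, 12.88 and 12.93 at 96 h, then 12.08, 12.62 and 12.49 at 144 h. The arrays of 24, 48 and 96 h did not overlap with those of 0 h, and the 48 h mean was 2.59-fold above it. Mthfd2 rose by 1.63 ± 0.23 from 12 to 96 h (adjusted p = 2.7e-06). Over the same interval Shmt2 rose by 1.20 ± 0.19 (adjusted p = 1.8e-05), Aars by 0.71 ± 0.12 (adjusted p = 3.5e-05), Phgdh by 1.03 ± 0.26 (adjusted p = 0.004) and Gpt2 by 0.72 ± 0.20 (adjusted p = 0.0093). The 2 Psat1 probes gave 0.46 ± 0.17 (adjusted p = 0.057) and 1.00 ± 0.41 (adjusted p = 0.095). Blocking on the replicate number brought the adjusted p-values to 0.0082 and 0.0023.

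In this group a single array stood apart. At 96 h replicate 1 lay at least 0.5 above both other arrays for 17 of the 69 probes, by 0.51 to 1.86, where 2.8% of all tested probes did so. The 17 probes included every named one of this metabolic group as well as Fgf21, and in 12 of the 17 replicate 1 was the lowest array at 144 h. For Phgdh, for example, the levels of replicates 1, 2 and 3 were 11.90, 11.15 and 10.70 at 96 h, then 9.83, 10.38 and 10.33 at 144 h. Without the 96 h array of replicate 1, the differences of 96 h from 12 h were 1.51 ± 0.29 for the first Asns probe (adjusted p = 0.00038), 1.20 ± 0.18 for Mthfd2 (adjusted p = 2.1e-05), 0.91 ± 0.18 for Shmt2 (adjusted p = 0.00047) and 0.54 ± 0.11 for Aars (adjusted p = 0.00098). Phgdh (0.71 ± 0.26, adjusted p = 0.066) and Gpt2 (0.34 ± 0.16, adjusted p = 0.18) no longer passed. What set this array apart was not tested.

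**Figure D5:**
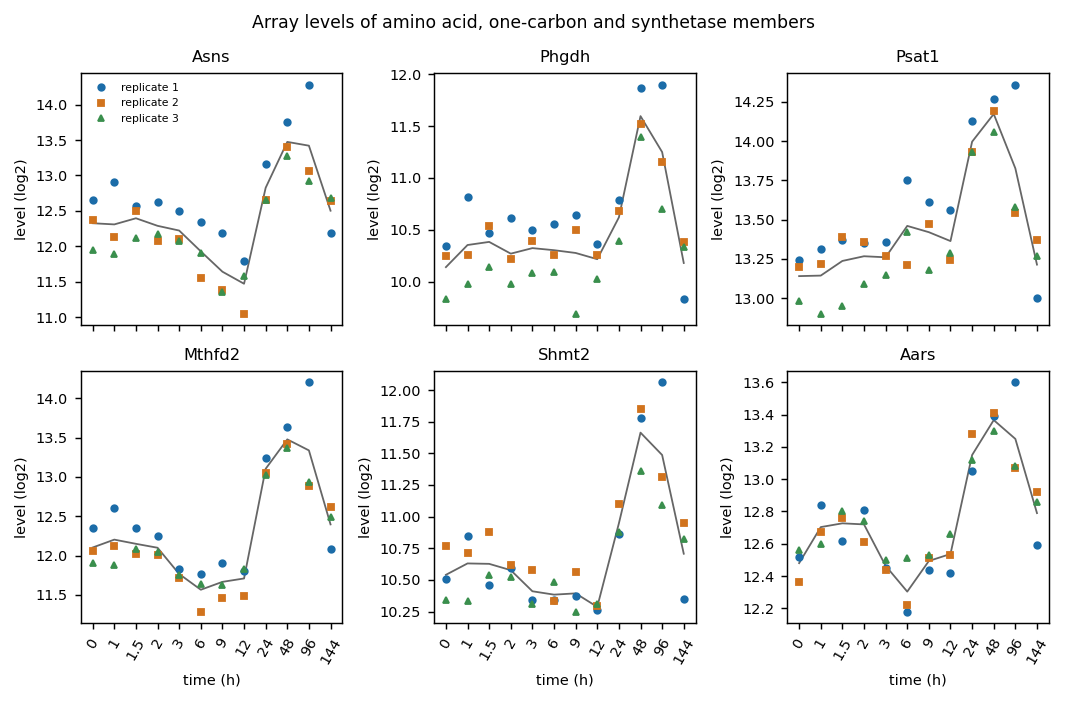
Fit-scale log2 levels (vertical axes) of Asns, Phgdh, Psat1, Mthfd2, Shmt2 and Aars at the 12 times (horizontal axes, hours, evenly spaced categories), with a marker for each replicate and a line through the means of 3. All 6 genes are high at 48 h and lower at 144 h, and at 96 h replicate 1 is above the other replicates in each.

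Lists drawn up after the members were seen put these genes beside others of their pathways. Of 17 tested probes for enzymes of serine, glycine, asparagine and one-carbon metabolism, a list that also held Gpt2 and Aldh18a1, 8 were members. Over the 9 that were not, the median deposited differences were 0.00, 0.03, 0.00 and −0.08 after 24, 48, 96 and 144 h. Of these 9 probes 6 were above 0 h at 48 h (66.7%), where 48.9% of all tested probes were, and all 9 were higher at 48 h than at 144 h, where 50.1% of all tested probes were. Among them Mthfd1l stood 0.32 below 0 h at 48 h and 1.37 below it at 144 h. The 9 also held a further probe of the member gene Shmt2, 0.60 above 0 h at 48 h. Of 32 probes for cytosolic aminoacyl-tRNA synthetases only Aars was a member. The other 31, which held a further Aars probe (0.11 at 48 h), had a median of 0.31 at 48 h and 0.04 at 144 h. Of these, 28 were above 0 h at 48 h (90.3%) and 25 were higher at 48 h than at 144 h (80.6%). Farsb (0.93 at 48 h) and Mars1 (1.00) met the height condition but missed the return.

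Enzymes of cholesterol synthesis among the members were Fdps, which makes farnesyl diphosphate, and Lss, lanosterol synthase. Both dipped at 24 h. Fdps levels were 14.98, 15.14 and 14.91 at 12 h, 14.77, 14.74 and 14.86 at 24 h, then 15.47, 15.44 and 15.25 at 48 h. Those of Lss were 10.34, 11.16 and 10.62, then 10.31, 10.67 and 10.49, and then 11.45, 11.44 and 10.95. In both genes each replicate was lower at 24 h than at 12 h, with both arrays on the same chip, and higher at 48 h. Among the 69 probes 6 had such a dip in their fit-scale means, namely Fdps, Lss, Ccn1 and 3 unnamed probes. Over the 25 tested probes for cholesterol synthesis enzymes that were not members, the median deposited differences were 0.26, 0.09, 0.51 and 0.14 after 12, 24, 48 and 144 h. Of these 25, 92.0% were higher at 48 h than at 144 h. The 25 held further probes of the member genes Fdps (0.65 at 48 h) and Lss (0.14). No probe of the shorter list of sterol and lipid synthesis genes, 7 in number, was a member. Fdps was higher at 96 h than at 3 h by 0.98 ± 0.20 (adjusted p = 0.0005), and Lss by 0.81 ± 0.34 (adjusted p = 0.088), or 0.80 ± 0.18 with the chip as a block (adjusted p = 0.00085). Tmem97, a sterol-regulated membrane protein, was 0.23 and then 0.90 above 0 h after 24 and 48 h, and 0.27 below it at 144 h.

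Ribosome assembly was represented by Pes1, Rrp9, Nip7 and Ccdc86, which encode nucleolar proteins. Their deposited differences at 48 h were 0.99 for Pes1, 1.12 for Rrp9, 1.09 and 1.04 for the Nip7 probes and 1.03 for Ccdc86. At 144 h they were 0.30, 0.56, 0.37, 0.52 and 0.47. Rrp9 levels were 10.31, 10.35 and 10.35 at 0 h, 11.79, 11.88 and 11.28 at 48 h, then 10.81, 11.39 and 10.99 at 144 h, so that 48 and 144 h overlapped. None of the 5 probes passed the test between 12 and 3 h or between 96 and 12 h. At 96 h against 3 h the 4 probes other than that for Pes1 were called higher, by 0.43 to 0.58 (adjusted p = 0.009 to 0.022). Each of these 4 calls was lost without the 96 h array of replicate 2 (adjusted p = 0.074 to 0.15).

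Signalling members differed in when they began. Hey1, a Notch-responsive repressor, was below 0 h at 1 h (deposited difference −0.24), reached 0.52 at 24 h and 0.99 at 48 h, and was back at 0.14 at 96 h and −0.03 at 144 h. Its levels at 48 h were 12.21, 12.35 and 11.96, all above those of 96 h (11.39, 11.29 and 11.24), while 0 h and 144 h overlapped. Hey1 passed the test in none of the 3 comparisons, for which the adjusted p-values were 0.59, 0.44 and 0.76. For 96 h against 12 h the chip as a block gave −0.42 ± 0.14 (adjusted p = 0.026) and the replicate number as a block −0.23 ± 0.15 (adjusted p = 0.32). Of the other 10 tested probes on the Notch and Wnt list, 5 were higher and none lower at 96 h than at 3 h. On the deposited scale Heyl, a relative of Hey1, stood 1.25 above 0 h at 48 h and 1.20 at 144 h. Nrarp, a Notch-induced feedback regulator, stood at 0.96 and 0.47, and the receptor Notch1 at 0.47 and −0.16.

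Rgs16, a brake on G protein signalling, was high on 2 occasions. Rgs16 levels were 9.20, 8.56 and 8.68 at 0 h, 10.57, 9.85 and 10.21 at 1 h, then 8.97, 8.78 and 9.09 at 3 h. They were again higher with 10.50, 9.92 and 9.94 at 12 h, then 10.71, 10.57 and 10.40 at 24 h, and were 8.81, 8.90 and 9.02 at 144 h. The arrays of 1 h and of 24 h were all above those of 0, 3 and 144 h. Rgs16 rose by 1.17 ± 0.20 from 3 to 12 h (adjusted p = 0.0012) and fell by 1.06 ± 0.20 from 12 to 96 h (adjusted p = 0.00026). In the authors' normalized values these Rgs16 differences were 0.77 ± 0.14 and −0.69 ± 0.14, both still called. Besides Rgs16, 3 members were at least 0.5 above 0 h at 1 h on the deposited scale. They were Ccn1, a matricellular protein and serum-response gene (2.25), Noct, a circadian deadenylase relative (0.78), and Tnfrsf12a, the TWEAK receptor (0.62). Ccn1 stood higher at 1 h than at 48 h (0.81), so that its 48 h value was the lesser of 2 peaks.

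Sox8, a transcription factor expressed in muscle precursors, stood 1.02 above 0 h by 6 h, reached 1.69 at 24 h and was 0.98 above it at 144 h. Sox8 fell by 0.65 ± 0.23 from 12 to 96 h (adjusted p = 0.043), a call lost without any of 5 of the 6 arrays. Pdgfb, a growth factor for mesenchymal cells, was a 48 h member (deposited difference 1.76) and rose by 1.60 ± 0.33 from 12 to 96 h (adjusted p = 0.00063). Gfra1 encodes a receptor for GDNF. Gfra1 levels were 11.26, 10.75 and 11.30 at 0 h, 12.01, 12.30 and 12.21 at 12 h, 11.69, 12.21 and 12.13 at 24 h, then 8.98, 10.86 and 10.46 at 48 h, with replicate 1 far below the others at 48 h. At 144 h replicates 1 and 2 stood at 10.70 and 10.88 with replicate 3 slightly higher, so that 144 h overlapped with 0 h. Gfra1 fell by 1.84 ± 0.28 from 12 to 96 h (adjusted p = 9e-06). Adamts5, a protease of the extracellular matrix, fell by 1.23 ± 0.19 over the same interval (adjusted p = 1.8e-05).

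Structural and nuclear members came mainly from the 24 h class. Itga6, the laminin receptor subunit integrin alpha 6, had levels of 10.12, 9.85 and 10.25 at 0 h, 11.58, 11.23 and 11.46 at 24 h, then 9.85, 9.46 and 9.45 at 144 h. Lmnb2, which encodes lamin B2, stood at 12.18, 11.98 and 12.06 at 0 h, 13.03, 12.81 and 12.89 at 24 h, then 11.34, 11.68 and 11.50 at 144 h. All Lmnb2 arrays of 24 h were above, and all of 144 h below, those of 0 h. Lmnb2 fell by 0.68 ± 0.12 from 12 to 96 h (adjusted p = 6e-05). Itga6 fell by 0.66 ± 0.18 (adjusted p = 0.0091; 0.057 without the 96 h array of replicate 2). Svbp, a partner of the vasohibin tubulin carboxypeptidases, rose by 0.74 ± 0.10 from 3 to 12 h (adjusted p = 9e-05), and its deposited difference was 1.59 at 24 h and 0.60 at 144 h. Lzts3 peaked at 1.07 at 24 h and was 0.05 at 96 h. The alpha-tubulin probe Tuba3a peaked at 1.06 at 48 h and was 0.07 at 144 h, and near-identical tubulin genes could contribute to its signal. Further Tuba3a probes that passed the filter were nearly flat, with 0.05 and 0.01 at 48 h.

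The remaining named members were smaller or less complete examples. Hdac11, a histone deacetylase, rose by 1.14 ± 0.21 from 3 to 12 h (adjusted p = 0.0026), or by 0.63 ± 0.13 in the authors' values (adjusted p = 0.0074). Thop1, a thimet oligopeptidase, rose by 0.78 ± 0.13 from 12 to 96 h (adjusted p = 4.3e-05), and Spg21 fell by 0.47 ± 0.12 (adjusted p = 0.0045). Ddc and Dbh, enzymes of catecholamine synthesis, peaked at 24 h, with deposited differences of 1.11 and 1.04 for the Ddc probes and 0.85 for Dbh. Slc29a1 (1.12), Tmem201 (0.91), Slc24a3 (0.86), Tmcc3 (0.85) and Cdk5r1 (0.81) also peaked at 24 h and Foxs1 (0.81) at 48 h. The 12 unnamed probes peaked between 0.84 and 2.66. Of these the highest, probe 101050300, was still 2.10 above 0 h at 144 h.

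Further probes did not always follow. For 27 of the 52 genes the array carried 36 more probes that were no members, of which 25 passed the filter on dim probes. Of these 25, 9 reached a deposited difference of at least 0.5 at the peak time of their gene and 21 were higher then than at 144 h. Probes of a gene can read different transcript forms or differ in sensitivity, which was not tested.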

How the data were processed

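The deposited tables held 36 columns, 1 for each array. Raw probe intensities were taken from the authors' non-normalized table, and the authors' normalized table held log2 values from 8.33 to 16.18, by a method not given in the sources used here; per the labels, total RNA was labelled with biotin. Probes were named by matching all 36 values of a probe to 5 decimals between the normalized table and the value table, and through the platform annotation: 28471 of 46019 probes had 1 symbol, 10 several and 17538 none here. Members came from the deposited log2 values, where a difference of dim probes is smaller than after background correction.

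For tests, raw intensities were corrected by normexp (offset 50), log2-transformed and quantile-normalized, and probes above the array median on at least 3 arrays were kept (29812, all 69 members among them). Then limma 3.58.1 (R 4.3.3) fitted a mean per time over all 36 arrays with an intensity trend, checked on simulated data. The number of arrays limits the precision, with a median standard error of 0.15. The array names show 6 chips that carry 6 arrays apiece, and no chip mixes replicate numbers. The p-values thus measure the spread between growths of successive passages of a single line, mixed with that between chips and arrays. Deviations of same-numbered arrays correlated at 0.51, 0.59 and 0.18 for 12 h against 3 h and at 0.43, 0.33 and 0.21 for 96 h against 12 h, so the numbers pair those samples. For 96 h against 3 h they were 0.35, 0.42 and 0.09. The last lies just below the cut-off of 0.1, and no pairing was taken. The fit without a block ignores the pairing in all 3 comparisons, so its calls stand beside those with the replicate number as a block.

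The members and gene lists were chosen with earlier results of these data known. Genes named by rule were the 20 named members with the largest return and members on the lists; the others named were chosen after their values were seen. Alternatives were another normalization, background, filter, block and each array left out. Promoter sequences are from RefSeq (GRCm38.p6; 44 of 52 member genes matched).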

Additional observations from a re-analysis of the deposited data

How the results depend on the processing

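For 12 h against 3 h, 27 members passed the test, and leaving out a single array or replicate gave 1 to 19. Dropping the 12 h array of replicate 3 left 10, dropping that of replicate 1 left 11, and dropping the 3 h array of either replicate 1 or replicate 2 left 14. Dropping the whole of replicate 1, 2 or 3 left 15, 8 and 1. For 96 h against 12 h the range was 18 to 29 around 27, and for 96 h against 3 h 32 to 42 around 43. With the replicate number as a block, where the pairing held, 38 members passed for 12 h against 3 h (36 higher, 2 lower). For 96 h against 12 h 38 passed (26 higher, 12 lower). The block gave 50 for 96 h against 3 h, a comparison without established pairing. Shares over all tested probes are not given for these blocked fits, so their counts have no scale. Median scaling, cyclic loess, no background correction, other filters and the authors' values gave 20 to 28, 25 to 31 and 34 to 47 calls in the 3 comparisons. The number of members was 69 in the deposited values but 159 in raw values after normexp and quantile normalization, 112 without background correction, and 136 with cyclic loess, each sharing 64 with the 69; the cause was not tested. Leaving out replicate 1, 2 or 3 gave 61, 85 and 96 members, of which 48, 62 and 66 were among the 69. No named gene changed direction in a call. Of 1197 values for 21 named genes, 1088 stayed on their side of the threshold, 59 lost the call and 50 gained it. Dim probes limit differences from 0 h, as for Ankrd2 and also for Kcnk13, Dbh and Nmrk2, whose levels at 0 h were low.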
